A study of Caenorhabditis elegans with 2 samples.

Results

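The homeobox genes of the ceh series are the C. elegans protein-coding genes named ceh for C. elegans homeobox. All such genes on the nuclear chromosomes I to V and X of WBcel235 were taken, with 5 exceptions that belong with the Hox genes, their cofactors and X-chromosome counting (ceh-13, ceh-20, ceh-39, ceh-40 and ceh-60), and pal-1 and irx-1 were added. This gave 60 of 19973 protein-coding genes. Whether, where and how strongly NHR-2 was found at them was described. NHR-2, a nuclear hormone receptor, was immunoprecipitated from whole animals at mixed embryonic stages, males and females pooled and of unknown age, and the DNA was sequenced (ChIP-seq). The strain was OP99, unc-119(ed3) III; wgIs99, so every animal carried the unc-119 mutation and an integrated transgene with a tagged nhr-2. The labels describe the target as eGFP-nhr-2 in the description and as nhr-2 in the antibody field, so which epitope was used is not settled by them. The single group held 2 biological replicates, replicates 1 and 2. Animals lacking the transgene were not analysed here, and whole embryos mix all cell types, so peaks cannot be placed in particular cells.

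A homeobox encodes the homeodomain, a helical fold that inserts a recognition helix into the major groove of DNA. Homeodomain factors set regional and cell identity in animal embryos, and in C. elegans they act in early lineage founder cells, in the skin and pharynx, and in nearly every class of neuron. They fall into classes by sequence: the ANTP class (Hox-like, caudal, engrailed and NK genes), the paired-like (PRD) class, the LIM, POU, sine oculis and CUT classes, and the TALE class with its loop insertion, to which Iroquois genes belong. Nuclear hormone receptors bind through a zinc-finger domain that reads, in many family members, the core word AGGTCA.

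Windows at 7 summits are shown first, since later results refer to them: strong peaks outside promoters at pal-1, ceh-10, ceh-27 and ceh-37, promoter peaks of ceh-53 and ceh-16, and a ceh-43 peak with a repeated E-box word. Each line gives the plus strand of ce11, 75 bp on each side of the summit, read from the RefSeq WBcel235 assembly, with any of 3 words in capitals on either strand: AGGTCA, the core of many nuclear receptor sites, then the GA repeat GAGAGA, and lastly an E-box word, CAGGTG. A word on the minus strand appears as its reverse complement.
pal-1 intron, chrIII:4806470-4806620: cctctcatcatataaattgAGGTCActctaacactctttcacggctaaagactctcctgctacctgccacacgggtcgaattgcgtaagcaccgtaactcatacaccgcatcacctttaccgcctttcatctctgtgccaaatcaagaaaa
ceh-53 promoter, chrIV:3497548-3497698: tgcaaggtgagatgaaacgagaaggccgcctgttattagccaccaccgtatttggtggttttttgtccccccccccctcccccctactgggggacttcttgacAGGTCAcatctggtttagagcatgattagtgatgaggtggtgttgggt
ceh-10 upstream, chrIII:5795122-5795272: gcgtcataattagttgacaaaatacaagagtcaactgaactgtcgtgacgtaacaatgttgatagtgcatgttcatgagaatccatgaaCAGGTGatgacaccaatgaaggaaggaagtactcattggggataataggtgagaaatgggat
ceh-27 downstream, chrV:11660684-11660834: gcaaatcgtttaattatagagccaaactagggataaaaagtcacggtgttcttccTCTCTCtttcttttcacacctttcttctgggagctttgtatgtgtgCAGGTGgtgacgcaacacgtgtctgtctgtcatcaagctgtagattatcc
ceh-37 downstream, chrX:14194842-14194992: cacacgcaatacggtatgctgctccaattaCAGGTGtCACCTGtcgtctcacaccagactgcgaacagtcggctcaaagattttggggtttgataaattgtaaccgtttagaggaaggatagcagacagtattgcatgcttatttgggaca
ceh-43 upstream, chrIII:4453888-4454038: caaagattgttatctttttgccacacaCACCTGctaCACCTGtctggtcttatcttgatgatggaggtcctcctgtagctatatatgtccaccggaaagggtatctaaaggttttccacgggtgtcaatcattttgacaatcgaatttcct
ceh-16 promoter, chrIII:8622565-8622715: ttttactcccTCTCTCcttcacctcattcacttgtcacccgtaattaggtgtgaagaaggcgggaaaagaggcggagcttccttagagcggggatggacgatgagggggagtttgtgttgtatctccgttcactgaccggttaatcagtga

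The pal-1 and ceh-53 windows hold AGGTCA, the ceh-10, ceh-27, ceh-37 and ceh-43 windows hold CAGGTG, and the ceh-27 and ceh-16 windows hold the GA repeat. The ceh-37 window carries CAGGTG on both strands with 1 base between the copies. The ceh-43 window carries it in 2 copies on the minus strand. Every printed window thus holds at least 1 of these words. Over all 40 summits found within 5 kb of the genes, 23 hold any (57.5%), so the printed windows are not representative. Upstream peaks at ceh-45 (signal 356), irx-1 (239) and ceh-16 (234) were stronger than the ceh-37 peak (177) but are not printed. Those of ceh-45 and irx-1 hold CAGGTG, and that of ceh-16 holds none of the words.

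NHR-2 peaks lay near a minority of the ceh-series genes. A peak here is a region of the authors' list thresholded by the irreproducible discovery rate (IDR), a method that compares ranks between replicates, and its signal is the authors' own score for the region, whose scale is not given in the sources. The authors' list of candidate regions from both replicates held 30000 and is named as peaks and background together. A candidate region alone is therefore not a peak. The promoter window ran from 1000 bp before to 200 bp past the 5′ end of the gene model, and a peak was placed by its summit. A promoter summit was present at 6 of the 60 genes (10%, 95% exact interval 3.76 to 20.5%), and at 4.16% of all protein-coding genes. These were pal-1, ceh-16, ceh-22, ceh-38, ceh-53 and ceh-89. Within 5 kb of the gene on either side, 20 of 60 had a summit (33.3%, 21.7 to 46.7%), against 15.7% of all protein-coding genes. For 6 of 60 there were 3 or more summits within 5 kb (10%, 3.76 to 20.5%), against 1.21%. A gene held the nearest 5′ end of at least 1 summit in 17 of 60 cases (28.3%, 17.5 to 41.4%), against 6.76%. The first interval takes in values just below the background share and the other 3 lie above theirs. They cover counting error over genes, and no test of the list was made, since its members were chosen with earlier results of these data known.

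**Figure D1:**
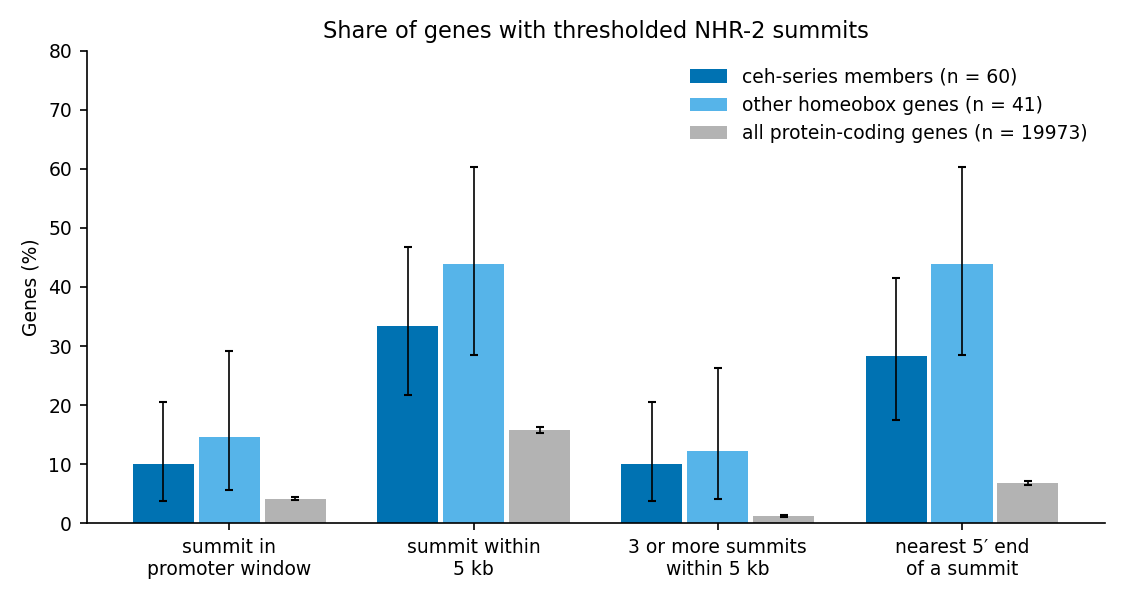
Percentage of genes (vertical axis) that met each of 4 rules, for the 60 ceh-series members, 41 other homeobox genes and all 19973 protein-coding genes; bars start at 0 and error bars are 95% exact binomial intervals over genes. Members stand at 10%, 33.3%, 10% and 28.3%, and all genes at 4.16%, 15.7%, 1.21% and 6.76%.

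Members were longer than genes at large, with a median of 2909.5 bp against 2027 bp, so somewhat more sequence was searched around each. They also had more room upstream, with a median of 1760.5 bp to the next protein-coding gene against 937 bp. Per length searched, the neighbourhoods of the members, 760 kb in all, held 5.26 peaks per 100 kb, and sequence within 5 kb of any protein-coding gene held 1.83. Member promoter windows held 9.71 peaks per 100 kb and all promoter windows 3.09. In total 40 peaks lay within 5 kb of a member, each near 1 member only. Of these, 7 were in promoter windows, and of the other 33, 16 lay further upstream, 6 inside the gene and 11 downstream. Outside the promoter windows of all protein-coding genes lay 31 of the 40 (77.5%), and 64.0% of all nuclear peaks. For 27 of the 40 the nearest 5′ end was that of a member, and for 13 it was that of another gene. Summits were intergenic in 27 cases, in an intron of the member itself in 6, and in a protein-coding exon in 1, that of ceh-38. The shares of these places over all nuclear summits were not counted, so they are not shown to be particular to the members. A noncoding RNA gene held 4 of the 40, and 9.71% of all nuclear summits.

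**Figure D2:**
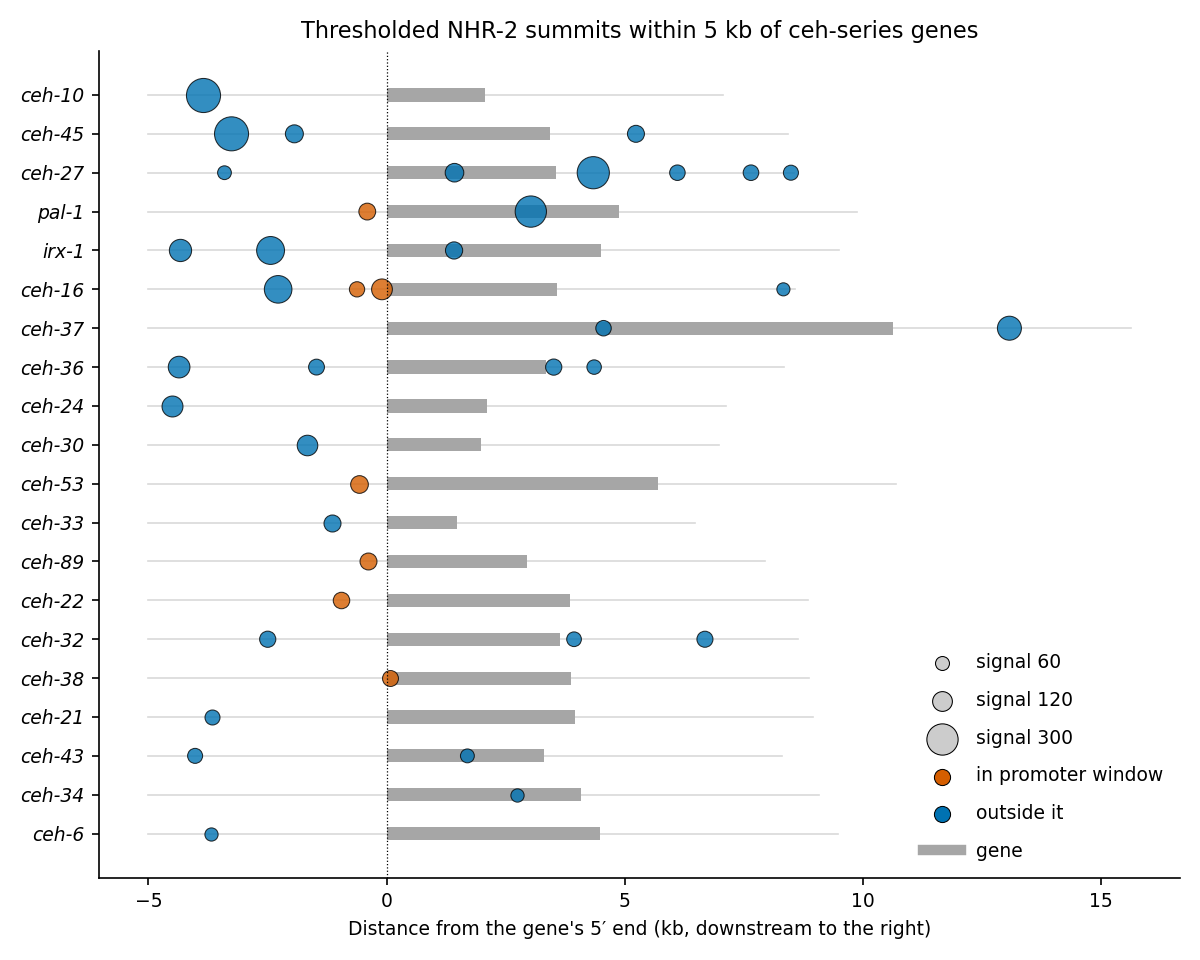
Thresholded summits around the 20 members that had any within 5 kb, by distance from the gene's 5′ end in kb (horizontal axis, downstream to the right), with genes ordered by their strongest peak. Grey bars are gene bodies, thin lines the searched range, and circle area is proportional to the authors' signal; the 7 summits in promoter windows are orange and the 33 others blue, and the circles of highest signal, at ceh-10, ceh-45, ceh-27 and pal-1, are blue.

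The median signal at these genes was close to that of the whole list, but none reached its highest values. The 40 member peaks had a median signal of 85.2 and ran from 52.7 to 358, and the 1843 nuclear peaks had a median of 83.0 and a highest value of 2151. Among the 100 strongest thresholded peaks 4 were member peaks, at ceh-10, ceh-45, ceh-27 and pal-1, and among the 200 strongest 6, with ceh-16 and irx-1 added. None of these 6 was in a promoter window. The 7 promoter peaks ran from 71.7 to 133 with a median of 87.0. The 33 other member peaks had a lower median, 80.7, though 10 of them exceeded the strongest promoter peak. In the whole list, split by the promoter windows of all protein-coding genes, the medians were 73.6 inside (664 peaks) and 90.9 outside (1179 peaks). The member peaks were split by the windows of the members only, so the order of the medians cannot be compared between these splits. Among the 33 other member peaks, that of signal 52.7 lay in the promoter window of dnj-10 and that of 69.3 in the window of ceh-39. Of the 10 strongest member peaks, each with a signal of at least 135, 9 were narrower than the median width of 380 bp; in the whole list 89% of the 200 strongest were, and 23% of all nuclear peaks.

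The set held 20 genes of the ANTP class, of which 3 had a promoter summit and 7 a summit within 5 kb. Over all protein-coding genes these shares were 4.16% and 15.7%. Counts by class are small, and differences between classes were not tested. The class includes pal-1, the caudal gene, which specifies the fates of posterior founder cells in the early embryo. It lies on chromosome III from 4804688 to 4809576 on the minus strand. Its stronger peak had its summit at 4806545, in a pal-1 intron 3031 bp past the 5′ end, with a signal of 301 (rank 97 of 1861). The candidate region there had a signal of 160 and rank 100 in replicate 1, and of 138 and rank 101 in replicate 2. This is the intronic window printed above with AGGTCA. A weaker peak lay in the pal-1 promoter, 404 bp upstream, with a signal of 87.0, and its ranks were 959 and 949. Both replicates therefore placed the intronic peak far above the promoter peak of the same gene.

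The engrailed gene ceh-16, which acts in the seam cells of the skin, was the only member with more than 1 promoter summit. It lies on chromosome III from 8622735 to 8626314 on the plus strand. The peak 95 bp upstream of its 5′ end had a signal of 133, with rank 573 in replicate 1 and 399 in replicate 2. That at 619 bp had a signal of 71.7 and ranks of 1637 and 889. A stronger peak, of signal 234, lay 2276 bp upstream at 8620459, where the 5′ end of C13G5.2 was nearer, and its ranks were 105 and 330. The fourth peak, past the 3′ end, had a signal of 52.7, lay in the promoter window of dnj-10, 94 bp from its 5′ end, and ranked 6199 and 1347. It was the weakest of all 40 member peaks, and its replicate 1 rank was the lowest.

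Among the NK-type genes, ceh-27 had the most peaks of any member. It lies on chromosome V from 11661549 to 11665102 on the minus strand, and 6 summits lay within 5 kb, a number reached by 21 protein-coding genes (0.105%). The strongest, at 11660759, was 790 bp past the 3′ end with a signal of 318. Its signal was 158 with rank 103 in replicate 1, and 159 with rank 64 in replicate 2. A peak of signal 106 lay in a ceh-27 intron, 1428 bp past the 5′ end, with ranks of 436 and 1567. Of the other 4, which ran from 58.3 to 74.6, 3 lay further downstream, 2 of them nearer to the 5′ end of zip-10, and 1 lay upstream, in an intron of F46F3.3 and nearer to its 5′ end. None was in the window of the gene model's 5′ end, where the strongest candidate region had a signal of 45.3, under the lowest thresholded signal of 51.6. With the 5′ ends of all annotated transcripts ceh-27 gained a promoter summit.

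The pharyngeal muscle gene ceh-22, an NK-2 factor, had a single peak 962 bp upstream of its 5′ end, with a signal of 83.5 and ranks of 882 and 1066. It was just inside the promoter window, and a window of 500 bp upstream leaves it out. The related ceh-24, which acts in head neurons and muscle, had a peak of signal 135 at 4502 bp upstream, with ranks of 576 and 428, and the 5′ end of swan-1 was nearer. The BarH-type gene ceh-30, which protects male-specific sensory neurons from cell death, had a peak of signal 130 at 1676 bp upstream, with ranks of 680 and 432. Its neighbour ceh-31, also of BarH type and 3096 bp away, had none within 5 kb. The distal-less gene ceh-43, which acts in the anterior skin and in dopaminergic neurons, had a peak of signal 69.2 at 4020 bp upstream and another of 59.2 in an intron. Their ranks were 1101 and 1417 in replicate 1 and 2611 and 2294 in replicate 2, so both stood lower in replicate 2, and with replicate 2 alone ceh-43 had no peak. The remaining 13 ANTP genes of the set had no thresholded summit within 5 kb.

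**Figure D3:**
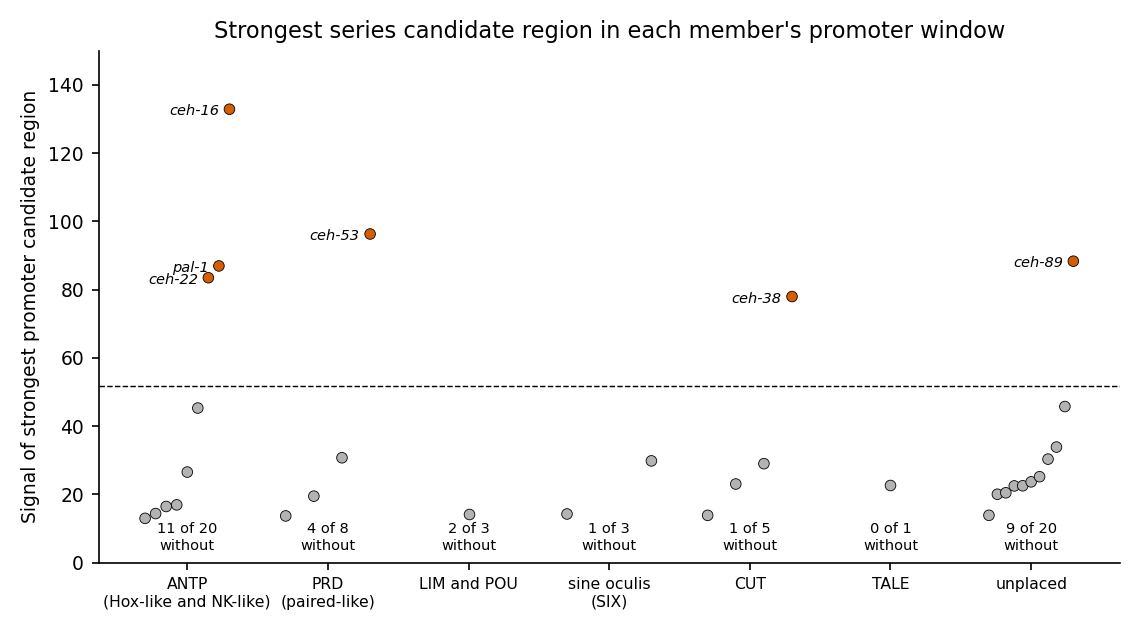
Signal (vertical axis, the authors' score in the series candidate list) of the strongest candidate region with its summit in the promoter window, for each member that had any, by homeodomain class; orange marks members with a thresholded promoter summit and the dashed line is the lowest thresholded signal, 51.6. The 6 orange points lie between 78.0 and 133, all grey points lie under 46, and the numbers at the foot give members with no candidate region in the window.

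Of the 8 paired-like genes in the set, 5 had a summit within 5 kb and 1 in the promoter window (15.7% and 4.16% of all protein-coding genes). The Vsx-type gene ceh-10, which with the LIM gene ttx-3 specifies the AIY interneurons, had the strongest peak of the family. Its summit at 5795197 on chromosome III was 3850 bp upstream, with a signal of 358 (rank 65). The candidate region there had a signal of 203 and rank 56 in replicate 1, and of 158 and rank 65 in replicate 2. The whole ceh-10 gene, from 5799047 to 5801115 on the plus strand, lies within polq-1, a DNA polymerase gene on the opposite strand, and the summit is in a polq-1 intron; the nearest 5′ end is nevertheless that of ceh-10. Almost level with it was the goosecoid-type gene ceh-45, on chromosome I from 1128324 to 1131765 on the plus strand. A peak of signal 356 (rank 66) lay 3255 bp upstream at 1125069, with signals of 180 and 176 and ranks of 77 and 50 in replicates 1 and 2. Of the weaker ceh-45 peaks, one of signal 99.3 was 1935 bp upstream and one of 88.7 was downstream, and both were intergenic.

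The Otx-type genes ceh-36 and ceh-37, which specify gustatory and olfactory neurons, are neighbours on the X chromosome, 10805 bp apart and on the same strand. Near ceh-36, from 14183221 to 14186566, lay 4 peaks with signals from 64.5 to 144; the strongest was 4356 bp upstream at 14190922, with ranks of 298 in replicate 1 and 733 in replicate 2. For 2 of the 4, with signals of 64.5 and 80.7, the 5′ end of C37E2.3 was nearer. Near ceh-37, from 14197372 to 14208000, a peak of signal 177 lay at 14194917, with ranks of 256 and 358, and a weaker one of 73.6 in an intron. The peak of signal 177 is past the 3′ end of ceh-37 and 8351 bp upstream of ceh-36, whose 5′ end is the nearest, so the space between both genes held 3 of the 6 peaks and the 2 strongest. The paired-like gene ceh-53 had a peak 586 bp upstream at 3497623 on chromosome IV, with a signal of 96.3 and ranks of 798 and 794, and its printed window holds AGGTCA. A promoter window of 500 bp leaves it out.

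All 3 genes of the set that belong to the sine oculis class had a summit within 5 kb and none in the promoter window. Over all protein-coding genes these shares were 15.7% and 4.16%. The optix-type gene ceh-32, which acts in head morphogenesis, had 3 on chromosome V, with signals of 80.6 at 2495 bp upstream, 66.3 just past the 3′ end and 79.2 further downstream, where the 5′ end of W05E10.5 was nearer. Their ranks lay between 1269 and 1836 in replicate 1 and between 765 and 1320 in replicate 2. The genes ceh-33 and ceh-34, of the sine oculis type, lie 3616 bp apart, and ceh-34 specifies neurons of the pharynx. A peak of signal 89.1 was 1148 bp upstream of ceh-33, just outside the promoter window, with ranks of 803 and 1048. A peak of 54.2 was in a ceh-34 intron, with ranks of 3215 and 1505. The 5′ end of C10G8.2 was nearer to it, and it was lost with replicate 2 left out.

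The remaining classes of the set were small, with 1 TALE gene, 3 LIM and POU genes and 5 CUT genes. Summits within 5 kb were found at 1, 1 and 2 of them, and at 15.7% of all protein-coding genes. A promoter summit was found at 1 CUT gene only, and at 4.16% of all protein-coding genes. The Iroquois gene irx-1, of the TALE class, lies at 9536465 to 9540966 of chromosome I (minus strand) and had 3 summits within 5 kb. A peak of signal 239 was 2435 bp upstream at 9543401, with ranks of 165 and 175. Another of 152 was 4327 bp upstream, with ranks of 297 and 599, and for both the 5′ end of swah-1 was nearer. The third, of 91.1, was in an irx-1 intron that also holds the noncoding RNA gene C36F7.14. Of the LIM and POU genes in the set 1 of 3 had a summit, the POU gene ceh-6, which acts in the excretory cell, with a signal of 53.8 at 3691 bp upstream and ranks of 3057 and 1553. This summit was lost with replicate 2 left out. Of the 5 CUT genes in the set, ceh-38, a ONECUT factor, had a summit 68 bp past its 5′ end, in its exon, with a signal of 78.0 and ranks of 1103 and 824; malt-1 shares that promoter region. The ONECUT gene ceh-21 was reached only by a peak of 69.3 that lies 226 bp from the 5′ end of ceh-39 and in its promoter window, 3662 bp upstream of ceh-21. With replicate 2 left out ceh-21 had no summit within 5 kb.

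The class lists left 20 members unplaced, and 1 of these had a summit within 5 kb, against 15.7% of all protein-coding genes. This was ceh-89, with a peak 383 bp upstream at 14141563 on the X chromosome, a signal of 88.3, and ranks of 650 in replicate 1 and 2208 in replicate 2. With replicate 2 alone the promoter peaks of ceh-89 and ceh-38 dropped out, leaving 4 members with a promoter summit, against 6 with replicate 1 alone. The replicate 2 region that overlaps the ceh-38 peak ranked 824 with its summit outside the promoter window; the strongest one with its summit inside ranked 24098.

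Of all 60 members, 40 had no thresholded summit within 5 kb. In 24 of these the promoter window held no candidate region of the series list either, and in the other 16 the strongest one ran from 13.01 to 45.8 with a median of 22.5, where the median over all protein-coding genes without a summit within 5 kb was 19.6. The highest were ceh-86 with 45.8, ceh-92 with 33.9, ceh-91 with 30.4, ceh-41 with 29.0 and ceh-62 with 26.6. The strongest promoter regions of the same genes, in the same order, had ranks of 3912, 5900, 14179, 9600 and 3256 in the replicate 1 list and of 2979, 4665, 6061, 5424 and 14866 in the replicate 2 list. Of members with no peak within 5 kb, ceh-88 came nearest to the threshold, with a candidate region of 49.1 in reach, outside its promoter window. At the distance limit, the farthest summit kept was that of ceh-27, 4941 bp past the gene end with a signal of 69.7, and the nearest left out was 5113 bp from ceh-32 with 75.1. In all, 53.3% of members and 37.9% of all protein-coding genes had any candidate region in the promoter window. Candidate regions include background and do not by themselves show NHR-2 at a gene.

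By chromosome, summits within 5 kb were found at 6 of 12 members on V, 4 of 7 on III, 5 of 15 on X, 3 of 9 on I, and 1 each of 13 on II and 4 on IV. Over all protein-coding genes the shares were 8.99% on V, 20.04% on III, 23.98% on X, 18.6% on I, 15.7% on II and 13.3% on IV. Chromosome V had the lowest share of all genes and held 6 of the 20 members with a summit. With counts this small, the order of chromosomes among the members was not tested.

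All 40 member peaks had a candidate region in both replicates, as did 99.3% of all nuclear peaks. Of 40 peaks, 35 ranked among the 1861 strongest regions of replicate 1, 35 among those of replicate 2 and 30 among both, or 75% where the share of all nuclear peaks was 68.3%. The 4 peaks among the 100 strongest of the thresholded list ranked 103 or better in each replicate. The lowest ranks were 6199 in replicate 1, near ceh-16, and 4929 in replicate 2, at the upstream ceh-27 peak. The thresholded list was itself made from ranks in the replicates, so these values describe the peaks and are no separate test.

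**Figure D4:**
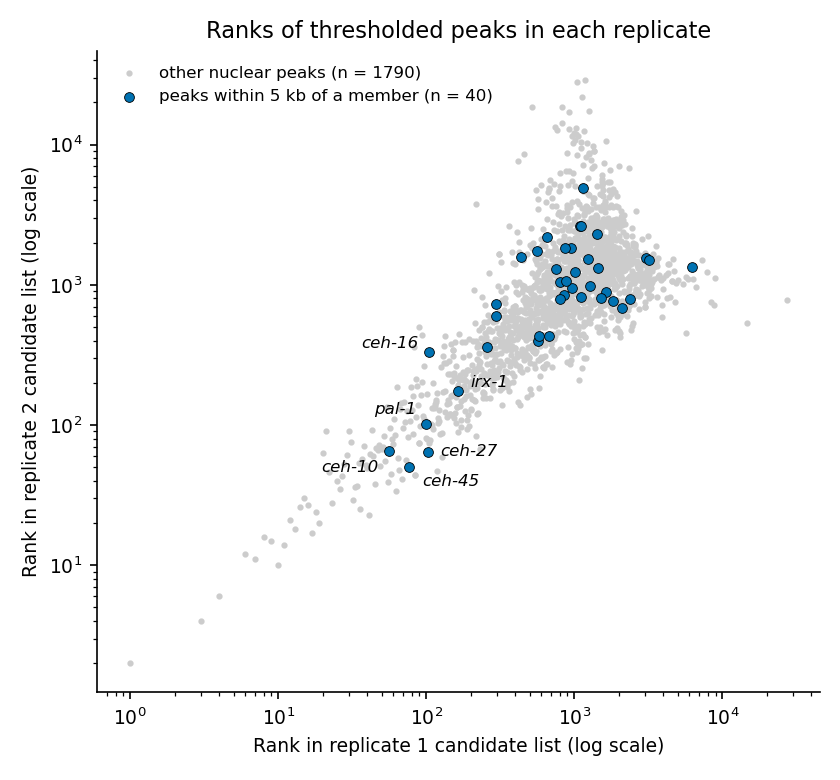
Rank of the overlapping candidate region in replicate 1 (horizontal axis) and replicate 2 (vertical axis), both log scales with rank 1 the strongest, for 1830 nuclear thresholded peaks with a region in both. Blue points are the 40 member peaks, and the 6 among the 200 strongest are named; those of ceh-10, ceh-45, ceh-27 and pal-1 rank 103 or better on both axes.

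Each of the 3 words was more frequent at member summits than in their flanks, and the share in the whole list lay within the interval of the members. AGGTCA lay within 75 bp of 5 of 40 member summits (12.5%, 4.19 to 26.8%), among them peaks of pal-1, ceh-53, ceh-27 and ceh-6, and of 17.3% of all nuclear summits. GAGAGA lay at 11 of 40 (27.5%, 14.6 to 43.9%), and at 29.95% of all; within 50 bp it lay at 5 of 40 (12.5%, 4.19 to 26.8%), and at 22.4% of all. CAGGTG lay at 10 of 40 (25%, 12.7 to 41.2%), and at 14.4% of all. In 80 windows of the same length centred 400 bp to either side of the member summits the shares were 5% for AGGTCA, 8.75% for GAGAGA and 2.5% for CAGGTG, of which that for AGGTCA lies within the interval at the summits. In candidate regions outside the thresholded list they were 3.92%, 9.38% and 3.77%. The peaks with CAGGTG included the strongest 3 of the family, at ceh-10, ceh-45 and ceh-27, both upstream irx-1 peaks, both ceh-43 peaks, the ceh-37 peak of signal 177, and peaks of ceh-33 and ceh-27. At least 1 of the 3 words lay at 23 of 40 member summits (57.5%), and at 52.5% of all. Median GC content in these windows was 42.4% for members and 45.03% for all nuclear summits.

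**Figure D5:**
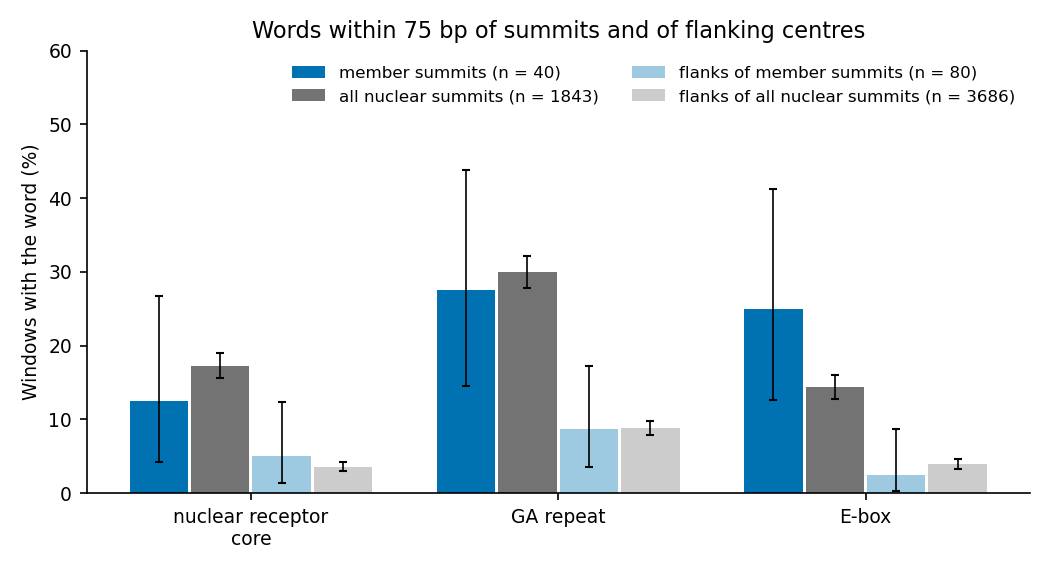
Percentage of windows of 151 bp (vertical axis, bars from 0) that hold the nuclear receptor core AGGTCA, the GA repeat GAGAGA or the E-box word CAGGTG on either strand, at member summits, all nuclear summits and windows 400 bp to either side of each; error bars are 95% exact binomial intervals over windows. Member summits stand at 12.5%, 27.5% and 25%, their flanks at 5%, 8.75% and 2.5%.

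Homeobox genes outside the set, 41 with other names or among the exceptions, were described in the same way. Of these, 6 had a promoter summit (14.6%, 5.57 to 29.2%), 18 a summit within 5 kb (43.9%, 28.5 to 60.3%) and 5 had 3 or more within 5 kb (12.2%, 4.08 to 26.2%). The nearest 5′ end of at least 1 summit was held by 18 (43.9%, 28.5 to 60.3%), against 28.3% of the members. Under each of the 4 rules the share was higher than that of the members, and each interval overlaps that of the members. The excess over all protein-coding genes was therefore not particular to the ceh series. These genes had a median length of 4142 bp and a median upstream space of 9235 bp, more than the members in both.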

How the data were processed

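The authors deposited region lists on build ce11: a candidate list for each replicate, a candidate list from both, and a thresholded list, per the texts deposited with the libraries. Candidate regions derive from the alignments and a control, per the same texts. The signal is the deposited value of each region, and it was used to describe and rank within a list only. For the aligner, caller, their versions and the threshold of the IDR, the entry is: not given in the sources used here. The lists give no read numbers, so depth is unknown. Lists on ce10 were not used. All region ends lay within the WBcel235 chromosomes.

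Genes came from Ensembl release 115, and sequences from RefSeq WBcel235, with 1-based coordinates. A replicate region was matched to a peak by 1 bp of overlap, and the strongest was taken. Words were searched on both strands. Intervals are 95% exact Clopper-Pearson and cover counting error only. The members and lists were chosen with earlier results of these data known, so no list was tested. Named genes are members with a summit in the promoter window or within 5 kb, the 5 others with the strongest promoter candidate, pal-1, irx-1, and genes that share or lie nearer to a summit. Genes named outside this rule, ceh-31, ceh-48, ceh-58, ceh-88 and the polq-1 host gene, were chosen after their values were seen. Of the names in the class lists, ceh-44 matched no annotated gene. Window counts were tested on simulated summits. Python 3.11.15, numpy 2.4.6, pandas 2.3.3, scipy 1.17.1 and matplotlib 3.10.9 were used.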

Additional observations from a re-analysis of the deposited data

How the results depend on the processing

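The count of 6 members with a promoter summit was 4 with a window of 500 bp upstream and 100 bp downstream (3.08% of all genes), 10 with 2000 bp and 500 bp (5.95%), 7 with all transcript ends (4.65%) or with any base of the peak (4.56%), and 5 with the stronger 930 peaks (1.55%). With the wider window ceh-30, ceh-33, ceh-36 and ceh-45 were added. With the 1861 strongest candidate regions of the other replicate in place of the thresholded list, it was 4 with replicate 1 left out (4.55%) and 6 with replicate 2 left out (3.8%). The count of 20 members within 5 kb ran from 14 with the stronger 930 peaks (7.75%) to 24 within 10 kb (25.1%). It was 21 (17% of all genes) and 17 (15.4%) with replicate 1 and replicate 2 left out. Without replicate 1, 18 of the 20 stayed, ceh-43 and ceh-89 were lost, and ceh-48, ceh-58 and ceh-88 were gained. Without replicate 2, ceh-6, ceh-21 and ceh-34 were lost and none was gained. With an overlap of 50% of both regions required, 31 of 40 peaks had a region in both replicates. The share of all nuclear peaks under this rule was not counted. The median signal of 85.2 was 88.7 over peaks nearest to a member and 87.0 over promoter peaks. Chosen after seeing the data, windows of 50 and 150 bp on each side gave 3 and 8 of 40 summits with AGGTCA (all nuclear peaks 13.1% and 24.9%), 5 and 14 with GAGAGA (22.4% and 44.3%), and 7 and 13 with CAGGTG (10.8% and 21.2%). At 50 bp the members stood at 7.5% for AGGTCA, with 5% in their flanks, at 12.5% for GAGAGA and at 17.5% for CAGGTG. No paired analysis was possible because the samples form 1 group. Depth is unknown, so a gene without a peak is not shown to lack NHR-2.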
